A study of Mus musculus with 9 samples.

Results

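The pyruvate dehydrogenase kinases and phosphatases are the enzymes that switch the pyruvate dehydrogenase complex off and on. The set described here was chosen by name and holds 7 of the 23747 genes in the tables: the 4 kinase genes Pdk1, Pdk2, Pdk3 and Pdk4, the phosphatase genes Pdp1 and Pdp2, and Pdha1, which encodes the subunit that both act on. Hearts of 9 C57BL/6 mice were studied by sequencing the RNA of single nuclei (sNuc-seq). The method tags each captured transcript with a unique molecular identifier (UMI) and each nucleus with a barcode. The mice were supplied at 8 weeks of age and then acclimatized for a week, by the paper's methods. Per the paper, the tissue came from below the site of coronary ligation, so the values are not those of whole hearts. The 3 sham mice had vehicle by gavage for 7 days and then surgery in which the needle was passed but no artery was tied. The 3 I/R mice had the same 7 days of vehicle, and then 30 min of coronary ischemia with 24 h of reperfusion. The 3 SBP mice had Shexiang Baoxin Pill (SBP, named MUSKARDIA in the labels), a Chinese herbal medicine, by gavage over the 7 days leading up to an identical ischemia and reperfusion. No group had the pill without ischemia, so SBP was compared with vehicle only in hearts that had I/R.

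Pyruvate dehydrogenase turns pyruvate from glucose or lactate into acetyl-CoA inside mitochondria and so sets how much carbohydrate enters the citric acid cycle. A PDK phosphorylates the E1 alpha subunit, the product of Pdha1, and stops the enzyme, and a pyruvate dehydrogenase phosphatase removes the phosphate and restarts it. The heart burns mostly fatty acids, and Pdk4 is best known there as the kinase that is induced by fasting, fatty acids and glucocorticoids. Pdk2 is expressed widely, Pdk1 is known as a target of the hypoxia factor HIF1, and Pdp1 encodes the calcium-activated phosphatase and Pdp2 the insulin-responsive one. These are activities of proteins, and only transcripts in nuclei were measured here.

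In mouse genome GRCm38 (GENCODE annotation), Pdk4 lies at chr6:5483351-5496309 on the minus strand, Pdk2 at chr11:95026258-95041354 on the minus strand, Pdk1 at chr2:71873224-71903858 on the plus strand and Pdk3 at chrX:93764607-93832201 on the minus strand. Pdp1 lies at chr4:11958184-11966452 on the minus strand, Pdp2 at chr8:104591451-104599026 on the plus strand and Pdha1 at chrX:160122209-160138413 on the minus strand. An antisense gene, Gm11513, overlaps Pdk2, and Map3k15 overlaps the end of Pdha1 on the other strand. The strand setting of the authors' counting is not given in the sources used here, and whether antisense reads entered these counts was not tested.

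The 250 bases before the start of Pdk4 are shown because this was the member that moved most, and those of Pdk2 and Pdk3 because one of these kinases was highest in cardiomyocytes, as Pdk4 was, and the other lowest there. The sequences are RefSeq's on GRCm38.p6, read 5′ to 3′ on the gene's strand, with matched motifs in capitals. The windows are chr6:5496279-5496528 for Pdk4, chr11:95041372-95041621 for Pdk2 and chrX:93832151-93832400 for Pdk3, all on the minus strand. Starts here are RefSeq's and differ from the GENCODE ones above, so the Pdk4 and Pdk3 windows reach into the GENCODE genes. A second Pdk2 window, chr11:95040876-95041125, held none of the motifs searched and is not shown.
Pdk4: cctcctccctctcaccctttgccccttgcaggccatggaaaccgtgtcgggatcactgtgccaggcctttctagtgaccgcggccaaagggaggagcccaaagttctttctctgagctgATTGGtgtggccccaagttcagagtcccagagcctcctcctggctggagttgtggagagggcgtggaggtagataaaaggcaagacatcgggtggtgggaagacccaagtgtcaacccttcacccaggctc
Pdk2: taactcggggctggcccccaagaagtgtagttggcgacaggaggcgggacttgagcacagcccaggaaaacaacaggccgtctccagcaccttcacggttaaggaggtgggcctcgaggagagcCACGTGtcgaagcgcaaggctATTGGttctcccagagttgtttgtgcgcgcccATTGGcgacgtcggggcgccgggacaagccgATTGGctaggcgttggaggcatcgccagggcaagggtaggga
Pdk3: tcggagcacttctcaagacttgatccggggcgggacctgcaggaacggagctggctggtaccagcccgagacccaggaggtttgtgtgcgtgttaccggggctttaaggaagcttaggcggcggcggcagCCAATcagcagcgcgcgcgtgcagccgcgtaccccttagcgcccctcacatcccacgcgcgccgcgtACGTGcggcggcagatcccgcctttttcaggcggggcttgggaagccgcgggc
Searched on both strands were GTAAACA (the FoxO and other forkhead motif), AGGTCA (nuclear receptor half-site), AGAACA (glucocorticoid receptor half-site), CACGTG (E-box), ACGTG (hypoxia factor core, which every E-box also holds), CCAAT and TATAAA. Of all 32851 mouse promoter windows of this length, 3.17% held the forkhead motif, 14.02% the nuclear receptor half-site, 16.08% the glucocorticoid half-site, 6.02% the E-box, 16.57% the hypoxia factor core, 33.85% the CCAAT box and 12.37% TATAAA. In the Pdk4 window the capitals mark the one match, a CCAAT box read on the opposite strand 131 bases before the start. In the Pdk2 window they mark an E-box 126 bases before the start and 3 CCAAT boxes at 105, 73 and 42 bases. In the Pdk3 window they mark a CCAAT box at 120 bases and the hypoxia factor core at 53 bases. A window was at hand for 6 of the 7 members, all but Pdp1.

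There were 49171 nuclei, with 10329520 to 18205985 UMIs a sample. The paper reports a larger number of cells after its quality control, and the reason for the difference is not given in the sources used here. The search for doublets marked only 85 nuclei (0.1729%), against 2168 at the expected rate, and was taken not to have worked. The 85 were removed and 49086 nuclei remained, among which doublets may still be present. Most nuclei were named from markers, giving 10544 cardiomyocytes, 12602 endothelial cells, 14106 fibroblasts and 9190 myeloid cells, with smaller named classes of 742 or fewer. The rest stayed unnamed and are in no class. Before doublets were removed, they included a cluster of 851 nuclei led by Reln and Mmrn1 and one of 375 led by Flt3. Of 48881 distinct barcodes, 290 occurred in more than 1 library. The cardiomyocyte nuclei clustered by group for sham and SBP, and by library within I/R. Of them, 94.05% to 96.68% of each sham library fell in one cluster, 82.23% of I/R 1 in another, 89.13% of I/R 3 in yet another, and 98.1% of I/R 2 in one that also took 90.97% to 94.58% of each SBP library. The I/R 1 cluster was led by Spp1, Gpnmb and Lyz2, genes of macrophages, and the sham cluster by the clock genes Dbp and Ciart. Myeloid cells made up 8.02% to 13.94% of sham nuclei, 17.88% to 34.06% of I/R nuclei and 12.64% to 26.6% of SBP nuclei. Summed UMIs of the 9 myeloid markers in the cardiomyocyte class were 86.4 to 120.9 counts per 1000000 UMIs in sham, 165.4 to 280.8 in I/R and 99.6 to 147.9 in SBP, with no marker at 0. By the paper's quality control, every sham library had fewer low-quality reads than every I/R and SBP library. Each sham library also had more reads with too many undetermined bases, and both kinds were a very small part of the reads. The share of high-quality bases after filtering was higher in every sham library than in every I/R and SBP library. Read quality was thus aligned with sham against the other groups in every comparison with sham. The part of these differences in the results below was not tested beyond the values given.

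Across the series, Pdk4 gave 50849 UMIs and the other members 711 (Pdp2) to 7240 (Pdha1). Of the Pdk4 UMIs, 91.1% were in cardiomyocytes, against 70.9% for Pdk2, 52.8% for Pdk1 and 5.67% for Pdk3. Of the UMIs of the phosphatases, 52.4% (Pdp1) and 65.8% (Pdp2) were in cardiomyocytes, and of those of Pdha1 48.5%.

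Pdk4, the nutrient-responsive kinase, was the one member whose transcripts differed between I/R and sham cardiomyocytes past the test. UMIs were summed over the cardiomyocyte nuclei of each mouse and scaled to counts per 1000000 UMIs (CPM) after library sizes were adjusted by the trimmed mean of M-values (TMM). Pdk4 was at 68.2, 284 and 107 CPM in sham 1 to 3, at 961, 1401 and 1874 CPM in I/R 1 to 3, and at 1541, 486 and 474 CPM in SBP 1 to 3. Every I/R mouse lay above every sham mouse, and so did every SBP mouse. SBP 1 lay inside the I/R range and SBP 2 and SBP 3 below it. These values rest on 361 to 1978 Pdk4 UMIs in a sham mouse, 6393 to 15290 in an I/R mouse and 2497 to 8091 in an SBP mouse.

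With I/R, Pdk4 rose by a log2 fold change of 3.40 ± 0.57 (SE; 95% interval 2.14 to 4.67) in cardiomyocytes (limma, adjusted p = 0.0265 over 12997 genes, rank 66). The group means were 153 ± 115 CPM in sham and 1412 ± 456 CPM in I/R (SD, n = 3). A gene was called where the adjusted p was at most 0.05 and the log2 fold change over 0.25. The call was 1 of 7 members, and 0.785% of all genes tested were called. The call rested on each of 4 libraries: the adjusted p was 0.0899 without sham 1, 0.1245 without sham 3, 0.104 without I/R 2 and 0.0733 without I/R 3. It was also lost when every nucleus was thinned to an equal depth, with a log2 fold change of 3.37 and an adjusted p of 0.118, and with no filter on low genes, at an adjusted p of 0.0503. Without I/R 1, the library whose cluster carried macrophage genes, the log2 fold change was 3.65 (adjusted p = 0.0110). With the nuclei of that cluster left out, an alternative chosen after the data were seen, it was 3.24 (adjusted p = 0.0211).

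Between SBP and I/R cardiomyocytes, Pdk4 did not differ past the test. The paper, by contrast, names Pdk4 under energy metabolism among the genes that its differential analysis of cardiomyocytes associated with SBP. Its text gives no direction or value for Pdk4. Its mean was 834 ± 613 CPM in SBP (SD, n = 3), the log2 fold change was -0.94, and the 95% interval ran from -2.21 to 0.32 (limma, adjusted p = 0.9997). Differences from a fall of 2.21 on the log2 scale to a small rise therefore lie within the interval. None of the 12997 genes was called in this comparison (percent called 0). An unadjusted limma p under 0.05 was found for 281, fewer than that threshold would pass if no gene differed. Without SBP 1, the log2 fold change was -1.50 and the adjusted p 0.99998. Between SBP and sham the log2 fold change was 2.46 with a 95% interval of 1.20 to 3.73, unadjusted p = 0.0015 and adjusted p = 0.116 by limma, so Pdk4 was not called there although the groups did not overlap. I/R and SBP were compared with the same 3 sham mice.

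**Figure D1:**
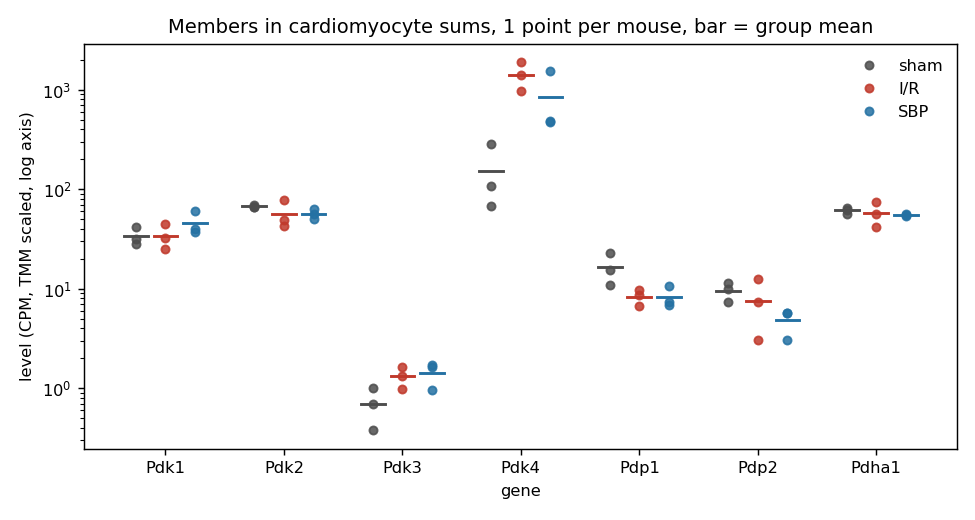
Level of each of the 7 members in cardiomyocytes, in CPM on a log axis, with one point for each of the 9 mice and a bar at each group mean. Pdk4 runs from 68.2 to 284 CPM in sham and from 961 to 1874 CPM in I/R, while the ranges of sham and I/R overlap for Pdk1, Pdk2, Pdk3, Pdp2 and Pdha1.

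The other 3 kinases were not called in any cardiomyocyte comparison. Pdk2, the widely expressed kinase, was at 66.7, 69.0 and 65.6 CPM in sham 1 to 3, at 42.4, 48.6 and 78.1 CPM in I/R 1 to 3 and at 49.7, 55.7 and 63.4 CPM in SBP 1 to 3. I/R 3 was above and I/R 1 and I/R 2 were below all sham mice. Its log2 fold change between I/R and sham was -0.30 (95% interval -0.76 to 0.17, limma adjusted p = 0.559). Every SBP value lay below every sham value, with a log2 fold change of -0.26 (limma adjusted p = 0.639).

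Pdk1, the HIF1 target, was at 28.2, 41.5 and 31.4 CPM in sham 1 to 3, at 25.0, 32.3 and 45.0 CPM in I/R 1 to 3 and at 60.6, 36.9 and 40.0 CPM in SBP 1 to 3. The sham and I/R ranges overlapped almost fully, with a log2 fold change of -0.01 (95% interval -0.56 to 0.54, limma adjusted p = 0.995). The highest Pdk1 value was that of SBP 1, the mouse that was also highest for Pdk4 in its group. Its log2 fold change from I/R to SBP was 0.42 (95% interval -0.13 to 0.97).

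Pdk3, the kinase with the fewest transcripts in cardiomyocytes, was at 0.38 to 1.00 CPM in sham, 0.98 to 1.65 CPM in I/R and 0.95 to 1.71 CPM in SBP. Its log2 fold change between I/R and sham was 0.46 (95% interval -0.15 to 1.07, limma adjusted p = 0.480). These levels rest on 2 to 11 UMIs a mouse.

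Pdp1, the calcium-activated phosphatase, was lower in every I/R and SBP mouse than in every sham mouse but did not pass the test. It was at 11.0, 22.8 and 15.5 CPM in sham 1 to 3, at 9.77, 6.64 and 8.58 CPM in I/R 1 to 3 and at 7.43, 10.6 and 6.83 CPM in SBP 1 to 3. The lowest sham value, 11.0 CPM, stood close above the highest SBP value, 10.6 CPM. The log2 fold change was -0.86 ± 0.27 (SE) between I/R and sham (limma adjusted p = 0.188) and -0.87 between SBP and sham (limma adjusted p = 0.205).

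Pdp2, the insulin-responsive phosphatase, was at 7.37, 11.3 and 10.0 CPM in sham 1 to 3, at 7.37, 3.04 and 12.4 CPM in I/R 1 to 3 and at 3.05, 5.67 and 5.69 CPM in SBP 1 to 3. The I/R mice spanned the whole sham range, and the SBP mice lay below it. The log2 fold change was -0.45 between I/R and sham (limma adjusted p = 0.641) and -0.89 between SBP and sham (limma adjusted p = 0.359).

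Pdha1, which encodes the subunit the kinases phosphorylate, was at 56.5, 61.6 and 65.0 CPM in sham 1 to 3, at 42.1, 55.8 and 74.9 CPM in I/R 1 to 3 and at 56.6, 54.8 and 54.3 CPM in SBP 1 to 3. The I/R mice lay on both sides of the sham mice. Its log2 fold change between I/R and sham was -0.12 (95% interval -0.55 to 0.31, limma adjusted p = 0.823).

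Between I/R and sham cardiomyocytes, 2 of the 7 members had groups that did not overlap, Pdk4 (higher) and Pdp1 (lower), and 16.4% of all genes tested had such groups. Between SBP and sham this held for 4 of 7, Pdk4 (higher) and Pdk2, Pdp1 and Pdp2 (lower), against 23% of all genes, and none of the 7 was called against 0.146% of all genes. Between SBP and I/R it held for 0 of 7, against 5.64%.

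**Figure D2:**
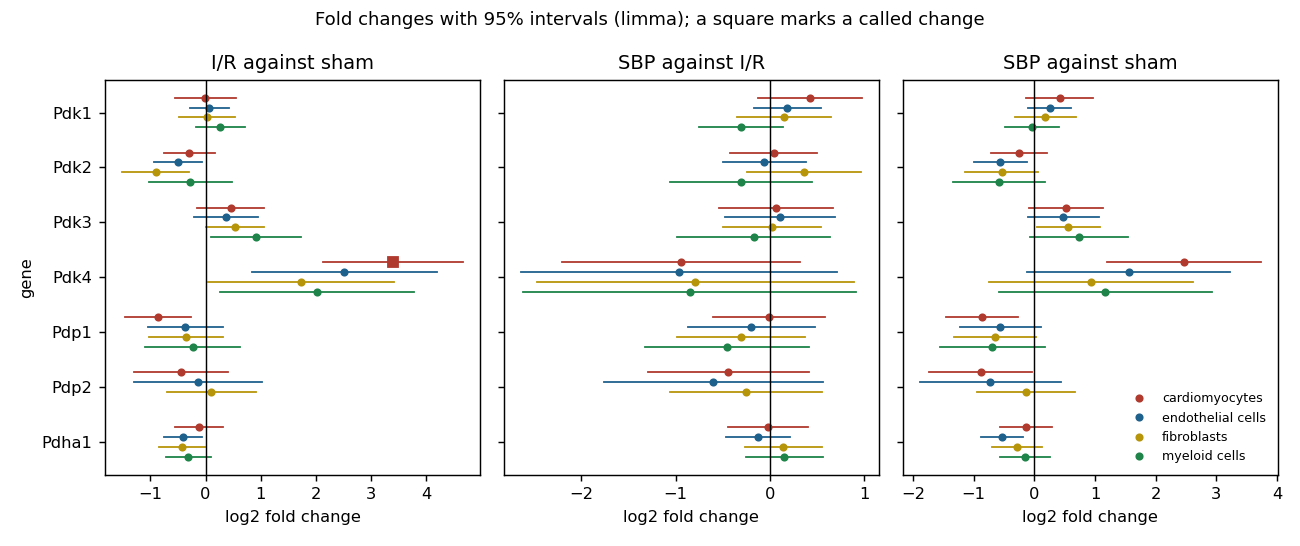
Log2 fold changes of the members with their 95% intervals, from limma on log2(CPM + 1), in each of the 4 large cell types and for each comparison of groups, with a square for a called change. The interval of Pdk4 in cardiomyocytes, 2.14 to 4.67 between I/R and sham, lies farthest from 0, and its interval between SBP and I/R crosses 0.

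Within the kinase family, the share of PDK UMIs that came from Pdk4 was higher in each I/R than in each sham mouse. In cardiomyocytes it was 55.3% ± 15.2 in sham (range 41.7% to 71.8%), 93.9% ± 0.58 in I/R (93.3% to 94.5%) and 86.3% ± 6.1 in SBP (81.8% to 93.3%), each as mean and SD of 3 mice. The exact permutation p was 0.1 for every pair of groups, the smallest that 3 against 3 mice allow. SBP and I/R were only just apart, with SBP 1 at 93.27% and I/R 1 at 93.3%. The 95% counting intervals of these 2 mice, 92.72% to 93.78% and 92.68% to 93.87%, overlapped. Each phosphatase UMI was matched by 9.51 ± 1.84 kinase UMIs in sham, by 103 ± 47 in I/R and by 79.9 ± 67.6 in SBP. The I/R range of 60.1 to 153 lay above the sham range of 8.04 to 11.6, and the SBP range of 35.7 to 158 held it. The shares are of UMIs. The 3′ chemistry tags transcript ends, so UMIs need not scale with gene length, and values per kilobase of exon are given as a second scale only. Per kilobase of exon, Pdk4 was at 43.6 CPM in sham and 402 CPM in I/R cardiomyocytes, against 21.2 and 17.8 CPM for Pdk2, 4.33 and 4.38 CPM for Pdk1, and 0.27 and 0.52 CPM for Pdk3. In SBP cardiomyocytes Pdk4 was at 238 CPM per kilobase and Pdk2 at 17.8. Pdha1 was at 16.3, 15.4 and 14.8 CPM per kilobase in sham, I/R and SBP.

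The share of cardiomyocyte nuclei with a Pdk4 UMI also differed between I/R and sham. It comes from the same nuclei and UMIs as the sums and depends on the mean level, so it is not independent of them. After every nucleus was thinned to 500 UMIs, which 13 nuclei of the series did not reach, 7.36% ± 5.73 of sham, 46.7% ± 10.4 of I/R and 29.1% ± 18.5 of SBP cardiomyocyte nuclei held a Pdk4 UMI (SD, n = 3). The ranges were 3.47% to 13.9% in sham, 35.3% to 55.9% in I/R and 18.3% to 50.5% in SBP, with an exact permutation p of 0.1 between I/R and sham, the smallest possible, and 0.3 between SBP and I/R. Unthinned, the means were 38.8%, 91.4% and 76.6%, at median depths of 3174 to 5696 UMIs a nucleus. In myeloid cells, for comparison, the thinned shares were 0.842% in sham, 3.12% in I/R, and 2.57% in the SBP group, and the unthinned ones 2.39%, 11.5% and 7.67%, at median depths of 1363 to 1912 UMIs.

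Across cell types the kinases were distributed differently. The level of each member was ordered by its mean log2(CPM + 1) over the 9 mice, and neighbours in the order were compared by exact two-sided sign flips over the mice, 28 pairs in all with T cells included. Of these, 5 differed, each with an adjusted p of 0.0219 from the smallest p that 9 mice allow, 0.0039. Pdk4 was higher in cardiomyocytes (800 ± 669 CPM, SD, n = 9) than in endothelial cells (67.3 ± 65.5 CPM), and fibroblasts followed at 60.2 ± 55.5 CPM and myeloid cells at 39.6 ± 35.6 CPM without passing that test against their neighbours. Pdk2 was higher in cardiomyocytes (59.9 ± 11.5 CPM) than in endothelial cells (26.9 ± 6.5 CPM), and in these higher than in fibroblasts (17.7 ± 6.2 CPM), with myeloid cells at 16.9 ± 6.5 CPM.

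Pdk3 was lowest in cardiomyocytes, the type where Pdk4 and Pdk2 were highest. Of the 4 large types it was highest in myeloid cells (17.1 ± 6.8 CPM), with fibroblasts at 13.6 ± 3.5 CPM and endothelial cells at 11.9 ± 3.3 CPM, and these last were higher than cardiomyocytes (1.15 ± 0.46 CPM). No other neighbours differed for Pdk3. The low level was seen in all 9 cardiomyocyte sums, whose highest was 1.71 CPM, below the lowest myeloid value of 5.39 CPM. For Pdk1 the neighbours that differed were myeloid cells (32.9 ± 5.0 CPM, the higher) and fibroblasts (15.5 ± 2.8 CPM), with cardiomyocytes at 37.9 ± 10.7 CPM and endothelial cells at 35.4 ± 4.1 CPM. No neighbours differed for Pdp1 (6.74 to 11.0 CPM over the 4 types), Pdp2 (2.47 to 7.33 CPM) or Pdha1 (43.4 to 64.0 CPM).

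In the other large cell types, the members were not called in any comparison. Pdk4 in endothelial cells was at 8.71, 37.7 and 13.2 CPM in sham 1 to 3, at 48.3, 98.0 and 204 CPM in I/R 1 to 3 and at 133, 37.0 and 25.3 CPM in SBP 1 to 3. All I/R values lay above all sham values, and the log2 fold change was 2.52 (95% interval 0.84 to 4.19, limma adjusted p = 0.124). None of the 7 members was called in endothelial cells between I/R and sham, against 2.51% of all genes tested. For 4 of 7 the groups did not overlap (Pdk3 and Pdk4 higher, Pdk2 and Pdha1 lower), against 20.5% of all genes.

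In fibroblasts Pdk4 was at 15.3, 28.7 and 27 CPM in sham 1 to 3, at 33.7, 84.6 and 166 CPM in I/R 1 to 3 and at 136, 22.1 and 29.2 CPM in SBP 1 to 3. I/R lay above sham in every mouse, with a log2 fold change of 1.73 (95% interval 0.05 to 3.41, limma adjusted p = 0.184). Pdk2 was at 20.3, 28.4 and 23.5 CPM in sham 1 to 3, at 8.12, 11.3 and 19.8 CPM in I/R 1 to 3 and at 18.0, 14.2 and 16.3 CPM in SBP 1 to 3. All its I/R values lay below all sham values, and the log2 fold change was -0.91 (95% interval -1.51 to -0.30, limma adjusted p = 0.0549). None of the 7 members was called in fibroblasts, where 11.6% of all genes were. For 2 of 7 the groups did not overlap, Pdk4 and Pdk2, against 27% of all genes. Without I/R 3, Pdk2 was called at -1.20.

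In myeloid cells Pdk4 was at 8.98, 26.1 and 8.36 CPM in sham 1 to 3, at 31.8, 62.2 and 81.1 CPM in I/R 1 to 3 and at 107, 16.7 and 14.1 CPM in SBP 1 to 3. The I/R mice again lay above the sham mice, with a log2 fold change of 2.02 (95% interval 0.26 to 3.78, limma adjusted p = 0.108). Pdk3 was at 5.39, 17.1 and 12.2 CPM in sham 1 to 3, at 13.6, 30.6 and 20.8 CPM in I/R 1 to 3 and at 19.4, 17.3 and 17.8 CPM in SBP 1 to 3. The sham and I/R values overlapped, and the log2 fold change was 0.91 (limma adjusted p = 0.114). Of the 6 members tested there none was called, against 18.4% of all genes, and Pdp2 had too few UMIs to be tested. For 2 of these 6 the groups did not overlap (Pdk1 and Pdk4, higher), against 35.4% of all genes. Pdk4 was called at 2.02 when the fit held only the 6 sham and I/R mice, and at 2.04 without SBP 1, and Pdk3 at 1.21 without I/R 1.

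SBP 1 had the highest Pdk4 of its group in each of the 4 cell types. In cardiomyocytes, endothelial cells, fibroblasts and myeloid cells its Pdk4 was 1541, 133, 136 and 107 CPM, against at most 486, 37.0, 29.2 and 16.7 CPM in the other 2 SBP mice. As set out below, Pdk4 in endothelial and myeloid nuclei was, over each group, under the number that cardiomyocyte transcripts would bring. The 4 types are thus not shown to be independent of each other. In endothelial cells, Pdha1 was at 64.7, 84.4 and 88.1 CPM in sham 1 to 3, at 56.4, 56.4 and 64.5 CPM in I/R 1 to 3 and at 52.5, 59.2 and 50.2 CPM in SBP 1 to 3. The lowest sham value stood just above the highest I/R value, and the log2 fold change was -0.40 between I/R and sham (limma adjusted p = 0.208) and -0.53 between SBP and sham (limma adjusted p = 0.124). Between SBP and sham none of the tested members was called in endothelial cells, fibroblasts or myeloid cells, where 1.7%, 6.15% and 13.5% of all genes were. Between SBP and I/R none was called in these types either (percent called 0 in each). No member passed the filter in T cells.

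**Figure D3:**
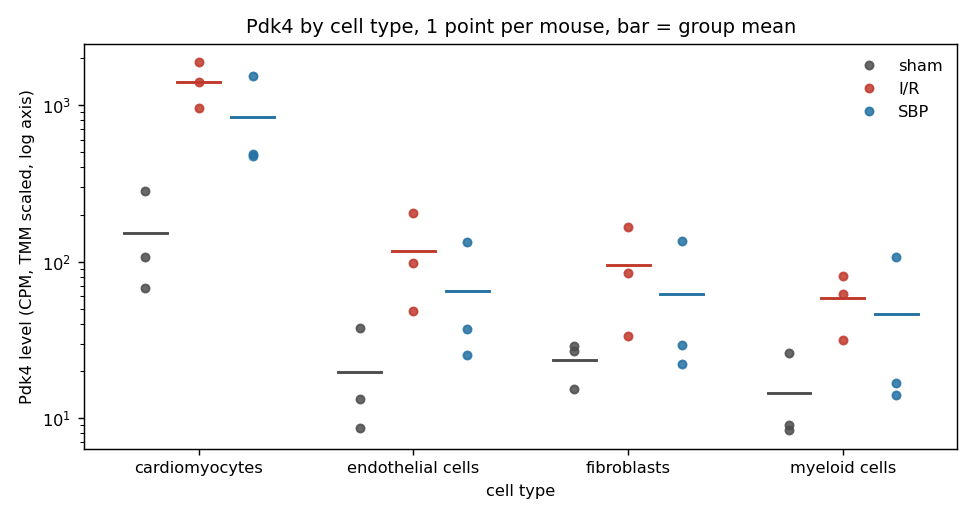
Pdk4 level in each of the 9 mice (points, coloured by group, with bars at group means) in cardiomyocytes, endothelial cells, fibroblasts and myeloid cells, in CPM on a log axis. Cardiomyocytes lie highest in every mouse, and SBP 1 is the highest SBP point in each type.

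The difference in the I/R change of Pdk4 between cell types was tested on the differences within each mouse. The log2 change was 1.38 larger in cardiomyocytes than in myeloid cells (95% interval 0.64 to 2.12, limma adjusted p = 0.0416, 5.5% of all genes called). It was 1.67 larger than in fibroblasts (95% interval 0.72 to 2.63, limma adjusted p = 0.0751, 2.1% called) and 0.89 larger than in endothelial cells (95% interval 0.20 to 1.57, limma adjusted p = 0.375, 0.0265% called), neither past the test. Myeloid Pdk4 was under the number that cardiomyocyte transcripts would bring (0.692 and 0.652 times it in sham and I/R), and cardiomyocyte markers in myeloid nuclei were lower in I/R than in sham, so the difference of 1.38 is one between sums and is not shown to be one between the cells' own expression. The call against myeloid cells was lost when any one of 8 of the 9 mice was left out, all but SBP 1, with differences of 1.16 to 1.52.

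Cardiomyocyte transcripts were present in the nuclei of every other type, and the Pdk4 values there were set beside them. The 7 cardiomyocyte markers made up 7704 to 9719 CPM in sham endothelial cells and 3106 to 5493 in I/R endothelial cells. In fibroblasts they were 4672 to 5850 in sham and 1655 to 2502 in I/R, and in myeloid cells 6146 to 7281 and 1813 to 2897. In cardiomyocytes they made up 35382 to 59531. If a type held its cardiomyocyte markers and Pdk4 in the ratio of cardiomyocytes of the same mouse, it would hold a certain number of Pdk4 UMIs, and the observed number over that one was computed. For Pdk4 this quotient was 0.704, 0.711 and 0.965 in endothelial cells of sham, I/R and SBP, and 0.692, 0.652 and 0.912 in myeloid cells. In fibroblasts it was 1.381, 1.239 and 1.433. The Pdk4 UMIs of endothelial and myeloid nuclei were thus at or under the number that cardiomyocyte transcripts in that ratio would bring, taken over a group, and single mice reached 1.031 and 1.294 times that number. The number assumes that stray RNA has the ratio found in cardiomyocyte nuclei, which was not tested, and on that assumption Pdk4 in endothelial and myeloid nuclei cannot be told apart from background. In single fibroblast samples the quotient ran from 0.805 to 2.643, on both sides of 1. For the other 6 members the quotient was above 1 in every group of these types, from 2.395 (Pdp2) to 256.118 (Pdk3). For Pdk3 the expected number was only 0.3 to 0.9 UMIs, from 16 to 26 cardiomyocyte UMIs a group, so the size of its quotient is poorly determined.

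**Figure D4:**
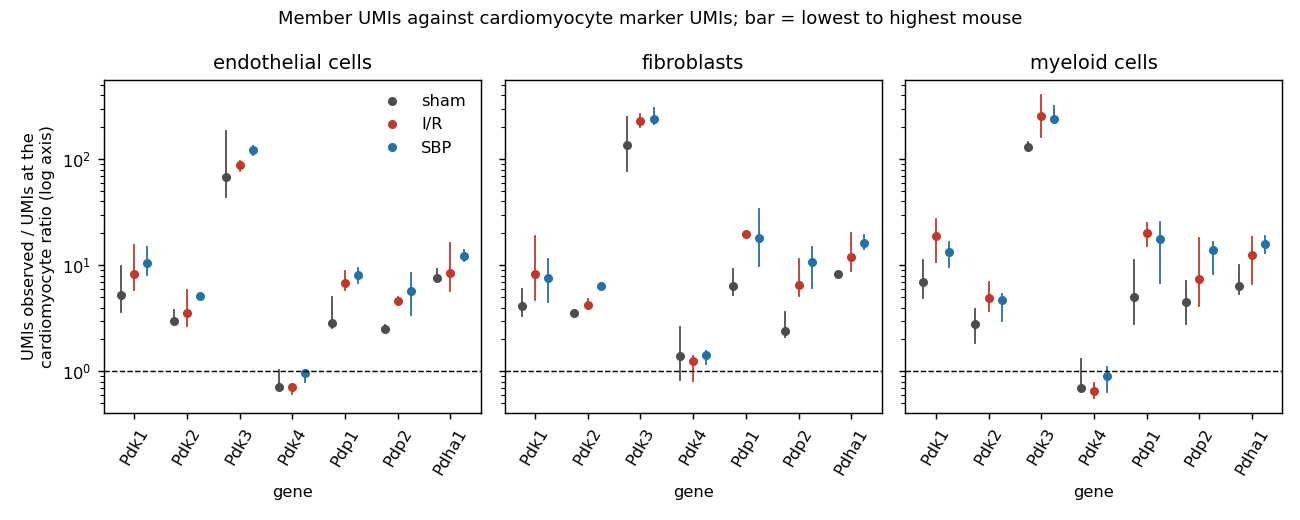
Observed UMIs of each member divided by those expected if cardiomyocyte markers and the member kept their cardiomyocyte ratio, in endothelial cells, fibroblasts and myeloid cells by group, on a log axis with a line at 1. Points are groups and bars run from the lowest to the highest mouse. Pdk4 lies between 0.652 and 1.433, and the other 6 members lie above 1.

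Within the cardiomyocyte clusters that held several groups, Pdk4 still differed widely between mice, and the order of the I/R mice changed from cluster to cluster. In the small cluster that every mouse shared (17 to 79 nuclei each, led by Grip1 and Cntn2), Pdk4 was at 74.8, 229 and 65.2 CPM in sham 1 to 3, at 889, 768 and 1638 CPM in I/R 1 to 3 and at 1018, 247 and 216 CPM in SBP 1 to 3, scaled to total UMIs. This cluster had the highest endothelial marker level of the 5 (559.4 CPM, against at most 130.5 in the others). It also had the highest fibroblast level (883.1 CPM, against at most 381.0) and the highest myeloid one (345 CPM, against at most 200.3), beside 42465.5 CPM of cardiomyocyte markers. The part of these markers in its values was not tested. The I/R values again lay above the sham values, and SBP 1 stood above the other SBP mice. In the cluster that joined I/R 2 and the SBP mice, led by the stress genes Ankrd1, Myh7 and Nppb, it was at 691, 1502 and 1165 CPM in I/R 1 to 3 and at 1455, 483 and 483 CPM in SBP 1 to 3. In the I/R 3 cluster it was at 1979 CPM, and in the I/R 1 cluster, with its macrophage genes, at 1009 CPM. No cluster had 20 nuclei in every sample, so these values are a description and carry no test.

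**Figure D5:**
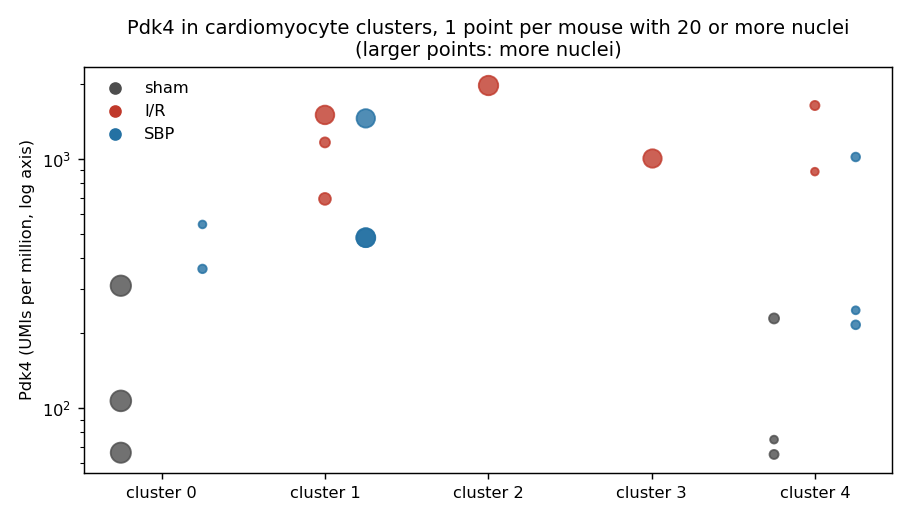
Pdk4 level, in CPM of total UMIs on a log axis, in each cardiomyocyte cluster and mouse with 20 or more nuclei, coloured by group, with larger points for more nuclei. Cluster 0 is the sham cluster, cluster 1 that of I/R 2 and SBP, cluster 2 that of I/R 3, cluster 3 that of I/R 1 and cluster 4 the one shared by all mice, where the I/R points drawn are at 889 and 1638 CPM (I/R 2, with 17 nuclei, is not drawn) and the sham points at 65.2 to 229 CPM.

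The genes around the kinases were described through 6 lists: the rest of the pyruvate dehydrogenase complex and the fate of pyruvate, the related branched-chain ketoacid dehydrogenase, targets of the PPAR receptors and fatty acid oxidation, factors known to act on Pdk4, genes responsive to glucocorticoids or FoxO, and genes responsive to hypoxia. No gene of any list was called between I/R and sham cardiomyocytes, where 0.616% of all genes were called higher and 0.169% lower. The median log2 fold change over all genes tested was -0.03, and 45.8% of them had a positive one.

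All 18 PPAR and fatty acid oxidation genes were tested, with a median log2 fold change of 0.41, and 88.9% of them had a positive one. Acot2, a mitochondrial acyl-CoA thioesterase, was at 8.63 ± 5.31 CPM in sham and 20.6 ± 7.3 CPM in I/R (log2 fold change 1.25, limma adjusted p = 0.193). Angptl4, an inhibitor of lipoprotein lipase, was at 5.19 ± 8.06 and 20.1 ± 10.8 CPM (2.54, limma adjusted p = 0.276). Cd36, the fatty acid transporter, was at 1328 ± 420 and 2576 ± 937 CPM (0.93, limma adjusted p = 0.279), and the cytosolic thioesterase gene Acot1 at 3.94 ± 4.75 and 11.0 ± 5.6 CPM (1.64, limma adjusted p = 0.30). None of these 4 passed the test.

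The 11 glucocorticoid and FoxO responsive genes had a median of 0.47, with 81.8% positive. Ddit4, an inhibitor of mTORC1, was at 6.71 ± 4.28 CPM in sham and 21.2 ± 7.8 CPM in I/R (log2 fold change 1.66, limma adjusted p = 0.169). Sgk1, the glucocorticoid-induced kinase, was at 3.99 ± 0.83 and 10.5 ± 4.3 CPM (1.15, limma adjusted p = 0.191), and the insulin receptor substrate gene Irs2 at 20.8 ± 3.2 and 83.4 ± 56.7 CPM (1.57, limma adjusted p = 0.298). Tsc22d3, which encodes the glucocorticoid-induced leucine zipper, had the opposite sign at 144 ± 31 and 104 ± 23 CPM (-0.47, limma adjusted p = 0.365). In the comparison of SBP with I/R the median of these 11 genes was -0.37, with 27.3% positive against 53.9% of all genes, and none was called. The other lists had medians of -0.0136 to 0.0514 there, with 40% to 54.5% positive. This list holds Fkbp5 and Zbtb16, which the paper reports from the same hearts as lowered by SBP in cardiomyocytes, so its median is not independent of that report.

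The 11 factors known to act on Pdk4 had a median of -0.23 between I/R and sham. Nr3c1, the glucocorticoid receptor, was at 180 ± 24 CPM in sham and 125 ± 25 CPM in I/R (log2 fold change -0.53, limma adjusted p = 0.241), and Ppargc1b, a coactivator of mitochondrial genes, at 405 ± 33 and 273 ± 74 CPM (-0.60, limma adjusted p = 0.247). The nuclear receptor gene Esrrg and the forkhead factor gene Foxo1 had adjusted p-values of 0.546 and 0.559 by limma.

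The 8 hypoxia responsive genes had a median of -0.23. Ddit3, a stress-induced transcription factor, was at 60.4 ± 8.5 CPM in sham and 28.4 ± 6.3 CPM in I/R (log2 fold change -1.07, limma adjusted p = 0.0686), and the hexokinase gene Hk2 at 253 ± 8 and 138 ± 51 CPM (-0.94, limma adjusted p = 0.245). Bnip3, a mitophagy receptor, was at 85 ± 40 and 194 ± 110 CPM (1.10, limma adjusted p = 0.377), and Vegfa, the vascular growth factor, at 747 ± 193 and 541 ± 125 CPM (-0.46, limma adjusted p = 0.478).

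The 10 other genes of the complex and of pyruvate fate had a median of -0.21, with 20% positive. Ldha, the lactate dehydrogenase A subunit, was at 48.5 ± 5.2 CPM in sham and 35.6 ± 4.9 CPM in I/R (log2 fold change -0.44, limma adjusted p = 0.329), and Mpc1, a subunit of the mitochondrial pyruvate carrier, at 455 ± 84 and 326 ± 125 CPM (-0.53, limma adjusted p = 0.394). Ldhb was at 324 ± 54 and 268 ± 61 CPM (-0.29), and Pdhx, the E3 binding protein of the complex, at 43.3 ± 9.0 and 57.0 ± 21.6 CPM (0.33), neither called. The 5 branched-chain genes had a median of -0.12, with Bckdhb, its E1 beta subunit, at 158 ± 41 and 101 ± 28 CPM (-0.64, limma adjusted p = 0.368) and Dbt, its E2 subunit, at -0.46 (limma adjusted p = 0.591). Bckdha and Bckdk, the kinase of that complex, had adjusted p-values of 0.880 and 0.909.

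The genes whose cardiomyocyte levels over the 9 sums were most like those of Pdk4 were Fmr1 (Pearson r = 0.98), Prpf39 (0.96), Foxj2 (0.96), Loxl2 (0.96) and Btg1 (0.95), of 12996 genes compared in log2(CPM + 1). The sums share mouse, group and depth between the genes, and the correlations are a description. Foxj2, a forkhead factor, had a log2 fold change between I/R and sham of 0.85 (limma adjusted p = 0.0505), Loxl2, a lysyl oxidase-like enzyme, of 1.46 (limma adjusted p = 0.0659) and Btg1, an antiproliferative factor, of 0.88 (limma adjusted p = 0.0903). Fmr1, which encodes an RNA-binding protein, had one of 0.38 (limma adjusted p = 0.288) and Prpf39, a splicing factor, of 0.39 (limma adjusted p = 0.260). None of the 5 was called. They were picked for following Pdk4 over these same sums, so their differences are not independent of that of Pdk4. Loxl2 was low throughout, at 0.19 to 1.29 CPM in sham and 3.42 to 4.53 CPM in I/R. Among the members themselves, r with Pdk4 over the same 9 sums ran from -0.59 (Pdp1) to 0.59 (Pdk3).

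Summed over all nuclei of a mouse, 2 of the 7 members were called between I/R and sham, and 11.3% of all 16116 genes were. In such sums, as in bulk tissue, the share of each cell type and the level within it cannot be told apart. Pdk4 was at 43.5, 161 and 75.5 CPM in sham 1 to 3, at 352, 557 and 952 CPM in I/R 1 to 3 and at 689, 201 and 197 CPM in SBP 1 to 3. It rose by 2.81 ± 0.59 (SE) on the log2 scale with I/R (limma adjusted p = 0.0185), a call that was lost without sham 1, sham 3 or I/R 2. Pdk3 was at 4.36, 6.36 and 6.30 CPM in sham 1 to 3, at 10.2, 11.8 and 8.59 CPM in I/R 1 to 3 and at 8.93, 10.9 and 8.91 CPM in SBP 1 to 3. It rose by 0.75 ± 0.19 (SE) on the log2 scale with I/R (limma adjusted p = 0.0335), and this call was lost at 0.60 to 0.83 without sham 1, sham 2, sham 3, I/R 1, I/R 2 or SBP 3, with thinned nuclei, and in the fit of the 6 sham and I/R mice alone. Myeloid nuclei, the highest in Pdk3 of the large types, numbered 366, 662 and 769 in sham 1 to 3. They numbered 2183, 1383 and 1013 in I/R 1 to 3 and 639, 1510 and 665 in SBP 1 to 3. Of the Pdk3 UMIs, 37.5% were in fibroblasts and 28.5% in myeloid cells. Type by type, the Pdk3 log2 fold change with I/R was 0.46 (cardiomyocytes), 0.37 (endothelial), 0.53 (fibroblasts) and 0.91 (myeloid), and none was called. The part of nucleus numbers in the rise of the summed Pdk3 was not tested. Pdk2 was at 48.2 to 54.4 CPM in sham and 22.4 to 49.0 CPM in I/R (log2 fold change -0.73, limma adjusted p = 0.0810), and without I/R 3 it was called at -1.02, as was Pdha1 at -0.54. Pdp1 was at 10.6 to 17.9 CPM in sham and 6.35 to 7.63 CPM in SBP (log2 fold change -0.91, limma adjusted p = 0.0511, 3.33% of genes called), and it was called without any one of the I/R mice, in the fit of the 6 SBP and sham mice alone (adjusted p = 0.0258), with a pseudocount of 0.25 and under a stricter filter on low genes.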

How the data were processed

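Nuclei from frozen heart tissue of 9 mice, taken below the site of ligation per the paper, were profiled with the Chromium 3′ chemistry. Per the study's methods, the authors aligned reads with Cell Ranger to the mouse genome, down-sampled the libraries, kept nuclei by gene number and mitochondrial share and normalized them in Seurat. The submitters' processing notes name Cell Ranger 4.0, STAR, Seurat 3.2.0 and GRCm38, and the methods name other releases of Cell Ranger and Seurat. The deposited values are natural log values, ln(1 + 10000 × UMIs of the gene / UMIs of the nucleus). Undoing the log and scaling gave UMIs back, nearly all whole to a tolerance of 0.1.

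Nuclei were clustered in scanpy 1.11.5 (2000 variable genes, Leiden) without the 70 genes of the members and lists and named from markers. Scrublet marked 85 doublets (0.1729%), which were removed, and at under 0.5% it was taken not to have worked. UMIs were summed per mouse and type with at least 20 nuclei. The test was limma 3.58.1 (R 4.3.3, trend, robust) on log2(CPM + 1) with TMM factors, 9 samples in 1 fit, after a filter at 10 UMIs in a median library in 3 samples. Pseudocount 1 understates changes of low genes. Adjusted p-values are Benjamini-Hochberg over all genes tested. Single values were compared by exact two-sided permutation. The limma intervals rest on the spread between mice within groups, pooled over the mice of the fit and moderated over all genes. The counting intervals cover counting error only. The fits were tested on simulated data. Besides the members, the genes named are, for each list, up to 4 with the smallest adjusted p in cardiomyocytes, and the 5 most correlated with Pdk4. Members and lists were chosen with earlier results of these data known.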

Additional observations from a re-analysis of the deposited data

Results flagged for a closer look

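The change of Pdk4 between I/R and sham differed between cardiomyocytes and myeloid cells by the test of that difference within mice. The log2 difference was 1.38 (95% interval 0.64 to 2.12, limma adjusted p = 0.0416), and the change was larger in cardiomyocytes. Of 9 fits that each left out 1 mouse, only the one without SBP 1 kept the call. The observed Pdk4 UMIs of myeloid nuclei were 0.692 (sham) and 0.652 (I/R) times the number that cardiomyocyte transcripts in their own ratio would bring, and cardiomyocyte markers in myeloid nuclei were at 6146 to 7281 CPM in sham and 1813 to 2897 in I/R. Their part in this difference was not tested.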

How the results depend on the processing

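Of 2481 values recomputed under alternatives, 2425 were the same. For fold changes this means their side of the threshold, for counts a similar number and for shares of nuclei the same sign. Of the 253 that answer a comparison, 223 were the same, and of the 2228 for single members, 2202. The Pdk4 call between I/R and sham cardiomyocytes held in 17 of 24 alternatives. Of the 2481 values, 57 had the opposite sign, over 28 results, none called in either fit (adjusted p at least 0.28 in the chosen setting and 0.64 in the alternative), and no called value changed sign. With I/R in cardiomyocytes, 0 members were called with no filter on low genes (Pdk4 3.40, adjusted p = 0.0503), with thinned nuclei (3.37, adjusted p = 0.118) and with the replicate block (3.40, SE 0.64, adjusted p = 0.0815), in place of 1. With 1 mouse left out, 0 to 1 was called and the Pdk4 log2 fold change was 2.95 to 3.98. In fibroblasts the count was 0 to 1 with 1 mouse left out, and in myeloid cells it was 1 with only the 6 samples compared and 0 to 1 with 1 mouse left out. The Pdk4 difference of cardiomyocytes from fibroblasts was past the threshold at 1.77 with a pseudocount of 5, with leave-one-out values of 1.32 to 2.09. That from myeloid cells was not at 1.32 with a pseudocount of 0.25 and at 1.32 with types taken from marker UMIs, with leave-one-out values of 1.16 to 1.52. The causes were not tested, beyond the smaller number of samples or UMIs that leaving out mice and thinning bring.

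Genes called between I/R and sham cardiomyocytes numbered 102, and 17 with thinned nuclei, 332 without the cluster with most Spp1 UMIs, and 18 (without sham 3) to 790 (without I/R 1) with 1 mouse left out. Same-numbered samples correlated at -0.312 to 0.253 in cardiomyocytes over 9 pairs, so the numbers were not taken to pair mice. Pdk3 in cardiomyocytes rested on 2 to 11 UMIs a mouse.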
